A study of Mus musculus with 8 samples.

Results

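The 8 genes described here encode the metallothioneins Mt1 and Mt2, the transcription factor Mtf1, and 5 zinc or manganese transporters of the Slc30 and Slc39 families, in the liver of obese diabetic mice. They were chosen by gene symbol from the table of normalized read counts, which holds 21532 genes, and all 8 were found and tested, since their normalized counts averaged at least 10 over the mice. The mice were male db/db animals, obese and diabetic for want of a functional leptin receptor. Treatment began at 8 weeks of age and lasted 5 weeks, with 2 retro-orbital injections a week of either AF1 peptide or control at a dose of 5 mg/kg. AF1 peptide consists of residues from the N-terminal part of estrogen receptor α, with internal deletions, behind a FITC-labelled TAT sequence, which carries it into cells. Every mouse of both groups carried the db/db genotype and lean mice were not analysed here, so the values describe the peptide in diabetic liver only. RNA of whole frozen liver was sequenced from 4 control and 4 AF1 peptide mice, with 1 library per mouse.

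Metallothioneins are small, cysteine-rich proteins that bind zinc and copper ions in the cell, and in liver they are among the genes most readily induced by zinc, glucocorticoids and inflammation. Mtf1 encodes the zinc-sensing factor MTF1, which binds metal response elements in the promoters of Mt1, Mt2 and the zinc exporter gene Slc30a1. Transporters of the Slc30 (ZnT) family move metal out of the cytosol and those of the Slc39 (ZIP) family move it in, and Slc30a10, Slc39a8 and Slc39a14 are best known for the balance of manganese between liver, bile and blood.

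The promoters of the metallothioneins and of Slc30a1 are shown because these 3 genes are the textbook targets of MTF1. RefSeq windows (build GRCm38.p6) of 300 bases, from 250 before to 50 after the annotated start, were available for 6 of the 8 genes. All 3 printed windows lie on the plus strand, at chr8:94178839-94179138 for Mt1, chr8:94172368-94172667 for Mt2 and chr1:191906531-191906830 for Slc30a1. The RNA-Seq table was made on build mm39 and has no coordinates, so genes were matched by symbol. Capitals mark the core of the metal response element, TGCACNC or TGCGCNC, on either strand.
Mt1: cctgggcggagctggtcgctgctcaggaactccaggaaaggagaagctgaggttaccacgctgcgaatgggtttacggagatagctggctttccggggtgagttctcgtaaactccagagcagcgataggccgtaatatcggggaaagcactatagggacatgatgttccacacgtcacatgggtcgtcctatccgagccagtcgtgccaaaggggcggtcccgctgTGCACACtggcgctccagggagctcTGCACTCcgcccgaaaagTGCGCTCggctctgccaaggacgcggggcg
Mt2: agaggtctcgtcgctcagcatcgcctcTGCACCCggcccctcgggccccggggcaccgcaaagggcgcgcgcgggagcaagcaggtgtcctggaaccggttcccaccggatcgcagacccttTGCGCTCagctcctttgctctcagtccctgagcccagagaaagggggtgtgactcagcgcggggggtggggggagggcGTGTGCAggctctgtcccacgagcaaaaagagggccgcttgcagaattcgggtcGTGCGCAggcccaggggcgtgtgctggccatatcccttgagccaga
Slc30a1: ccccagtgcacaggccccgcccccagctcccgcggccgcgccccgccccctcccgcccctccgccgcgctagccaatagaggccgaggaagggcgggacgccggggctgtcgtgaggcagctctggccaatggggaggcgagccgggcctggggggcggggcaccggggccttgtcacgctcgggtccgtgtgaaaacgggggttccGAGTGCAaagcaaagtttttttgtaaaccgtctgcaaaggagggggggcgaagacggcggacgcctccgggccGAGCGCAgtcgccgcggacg
The window of Mt2 held 4 cores, those of Mt1 and Slc30a10 held 3 each, and that of Slc30a1 held 2. In Slc30a10, 2 of the 3 cores overlap each other on opposite strands. Slc39a8 has 2 annotated windows, with 0 and 1 cores, and the Mtf1 window held 0. Among all 32851 promoter windows of this length, 25.7% held at least 1 core, 7.11% at least 2, 1.97% at least 3 and 0.517% at least 4. A match of letters is a description of these windows and not a binding site.

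Between 23031880 and 45117528 reads per mouse were recovered from the deposited values, and the 8 genes had 97 to 75309 reads in a library. The mitochondrial share of reads was 22.4 to 34.3% in control and 20.8 to 37.8% in AF1 peptide mice (exact permutation test, two-sided, p = 0.4). All 7 hepatocyte markers were measured, and the least abundant of them averaged 11967 normalized counts. The library of AF1 peptide replicate 1 stood apart from its group. Its chi-square statistic of reads per degree of freedom was 231 to 312 against the other AF1 peptide mice, whereas all other pairs within a group had 14.6 to 101. Fold changes of the 8 genes are therefore also given without this mouse.

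None of the 8 genes passed the study's threshold of an unadjusted p value under 0.05 between AF1 peptide and control livers in limma (0 higher and 0 lower). Across all 15989 tested genes, 506 (3.16%) were higher and 484 (3.03%) lower at this threshold, and none passed after Benjamini-Hochberg adjustment (0 genes, smallest adjusted p = 0.763). The fold changes of the 8 genes had a median of -0.11 on the log2 scale, with 4 above and 4 below 0, beside a median of -0.0083 over all tested genes. This median of the 8 genes was -0.0094 without AF1 peptide replicate 1, -0.0356 without AF1 peptide replicate 3, -0.0424 with edgeR, -0.0406 with DESeq2 and -0.1964 at equal totals. In none of the 8 were the groups separated, where 3.9% of all tested genes had groups that did not overlap. Among the other tools, edgeR on the recovered reads called 1 of the 8 genes (Mt1) at an unadjusted p value under 0.05, and DESeq2 called 0. After adjustment over all genes, edgeR called 0 genes and DESeq2 called 3, none of them among the 8. When all libraries were scaled to equal totals, 14.4% of the genes called in the whole table were higher in place of 51.1%, and 1 of the 8 (Slc30a10) was called lower.

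**Figure D1:**
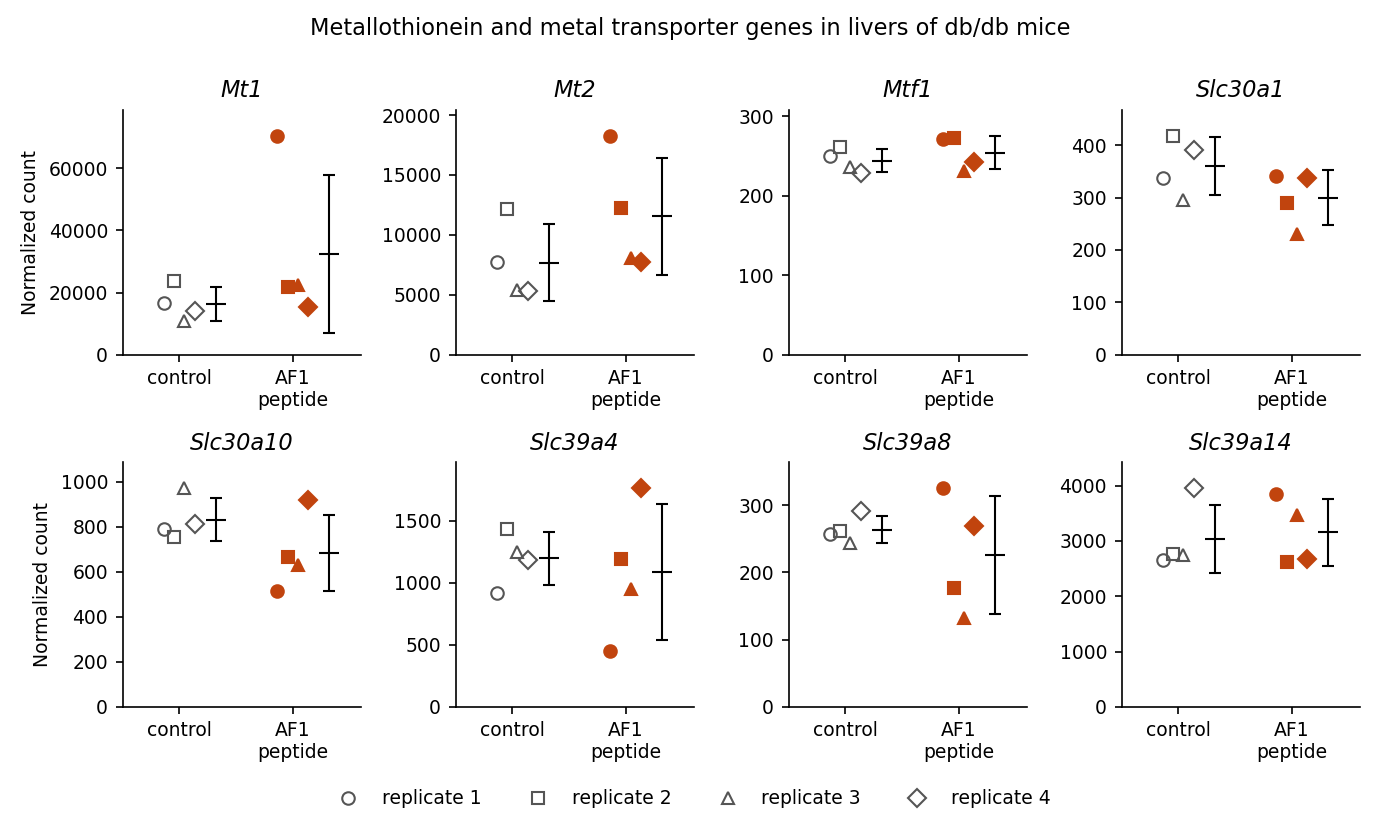
Normalized read count (y axis, linear, from 0) of each of the 8 genes in the 4 control mice (open grey symbols) and the 4 AF1 peptide mice (filled orange symbols), with the group mean and SD (black). The symbol shape gives the replicate number. AF1 peptide replicate 1 (circle) lies at 70276 for Mt1, against 10880 to 23807 in the other 7 mice, and the groups overlap in all 8 genes.

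Mt1, a ubiquitous metallothionein, was the most variable of the 8 genes between AF1 peptide mice. Its normalized counts were 16629, 23807, 10880 and 13982 in control replicates 1 to 4 and 70276, 21693, 22588 and 15468 in AF1 peptide replicates 1 to 4. A single mouse, AF1 peptide replicate 1, was 2.95-fold above the next highest mouse, while the other AF1 peptide mice all lay inside the range of the controls. The group means were 16324 ± 5514 for control and 32506 ± 25378 for AF1 peptide livers (SD, n = 4 each). The log2 fold change was 0.79 with a standard error of 0.42 and a 95% interval of -0.14 to 1.71 (limma, adjusted p = 0.763). Without AF1 peptide replicate 1 it was 0.33. Without AF1 peptide replicate 4, the lowest of its group, it was 1.05 and passed the unadjusted threshold.

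Mt2, the neighbor of Mt1 on the same chromosome, followed it. Its normalized counts were 7708, 12193, 5427 and 5362 in control mice and 18230, 12204, 8114 and 7698 in AF1 peptide mice, in replicate order. AF1 peptide replicate 1 was again the highest of all mice, by 1.49-fold. Replicate 2 lay just above the highest control mouse, and AF1 peptide replicates 3 and 4 lay among the controls. The means were 7673 ± 3205 (SD, n = 4) and 11562 ± 4889 (SD, n = 4) normalized counts. The log2 fold change was 0.59 (standard error 0.32, 95% interval -0.12 to 1.29, limma adjusted p = 0.765), and 0.34 without AF1 peptide replicate 1. Leaving out control replicate 2, the control mouse with the most Mt1 and Mt2, gave 0.84, which passed the unadjusted threshold. Of the 50-base words of the Mt2 transcripts, 45.8% also lie in the antisense gene Gm45774, and whether strand was used in counting is not given in the sources used here. Mt1 shared 0% of its words with other genes.

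The ratio of Mt1 to Mt2 normalized counts within a mouse was 1.95 to 2.61 in control livers, and 3.85, 1.78, 2.78 and 2.01 in AF1 peptide replicates 1 to 4. The mean ratios of 2.18 ± 0.298 and 2.61 ± 0.937 (SD, n = 4 each) did not differ beyond the spread between mice (two-sided exact permutation test, p = 0.486, where the smallest possible is 0.0286). Without AF1 peptide replicate 1 the AF1 peptide mean was 2.19 ± 0.527 (SD, n = 3). Over the 8 mice the log2 values of Mt1 and Mt2 had a Pearson correlation of 0.91, and of 0.87 over the 7 mice without AF1 peptide replicate 1, as a description of these libraries.

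Several marker sums of AF1 peptide replicate 1 also lay outside the range of the other mice. The summed normalized counts of hepatocyte markers were 1764174 in this mouse, against 2427853 to 2550025 in control mice and 2075886 to 2528687 in the other AF1 peptide mice. The 6 Kupffer cell and macrophage markers summed to 1851 in this mouse, to 3656 to 4366 in control mice and to 4187 to 4504 in the other AF1 peptide mice. Its sums were also the lowest of all mice for stellate cells (2619, 5 of 5 markers), cholangiocytes (803, 5 of 5) and red blood cells (27111, 5 of 5). The sum of the small intestine list was lowest there too (2530, 3 of 5), but nearly all of it was Fabp2. The endothelial sum (3965, 6 of 6) and the single acinar marker measured, Cela1 (207, 1 of 6), lay within the range of the other mice. No measured marker was at 0 in all mice, and kidney markers were not analysed here. In whole liver, fewer cells of a type and less RNA per cell cannot be told apart, and the part of these shifts in the metallothionein values was not tested.

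**Figure D2:**
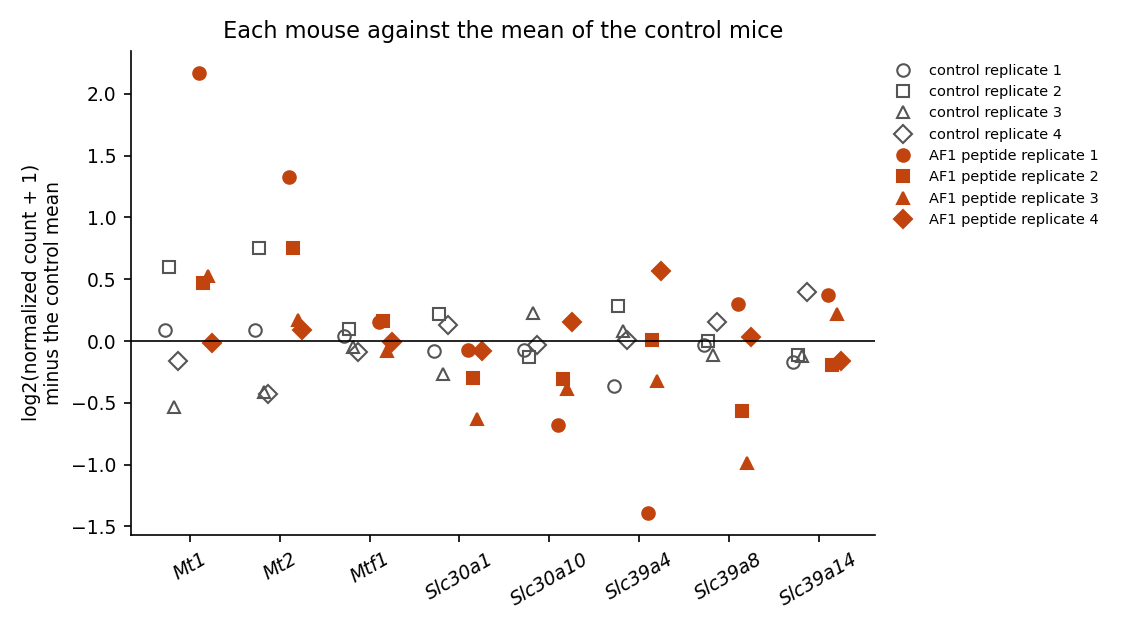
Log2(normalized count + 1) of each mouse minus the mean of the 4 control mice (y axis) for the 8 genes (x axis), control mice open and AF1 peptide mice filled. AF1 peptide replicate 1 lies at 2.17 for Mt1, 1.33 for Mt2, -0.68 for Slc30a10 and -1.39 for Slc39a4, and every Mtf1 value lies between -0.09 and 0.16.

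Mtf1 was the steadiest of the 8 genes. It had 250, 261, 236 and 229 normalized counts in control mice and 271, 272, 231 and 242 in AF1 peptide mice, so that the lowest and the highest of all mice differed little. The means were 244 ± 14.4 and 254 ± 20.7 (SD, n = 4 each). The log2 fold change of 0.06 had a 95% interval of -0.19 to 0.30 (limma adjusted p = 0.924), which leaves a fold between 0.879 and 1.23, and it was 0.03 without AF1 peptide replicate 1 and -0.03 when libraries were scaled to equal totals. Over the 8 mice its Pearson correlation was 0.89 with Mt2 and 0.66 with Mt1, and 0.86 and 0.54 without AF1 peptide replicate 1. Mtf1 shares 7.55% of its 50-base words with 1110065P20Rik on the other strand.

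Slc30a1 encodes the zinc exporter of the plasma membrane. It had 337, 417, 295 and 391 normalized counts in control mice and 341, 290, 230 and 338 in AF1 peptide mice. Replicates 2 and 3 of the AF1 peptide group lay below every control mouse, and the other AF1 peptide mice lay among the controls. Means were 360 ± 54.5 and 300 ± 52 (SD, n = 4 each), a log2 fold change of -0.27 with a 95% interval of -0.62 to 0.08 (limma adjusted p = 0.774). It was -0.34 without AF1 peptide replicate 1 and -0.15 without AF1 peptide replicate 3. Its Pearson correlation with Mt1 over the 8 mice was 0.04, and with Mt2 0.09. Of its 50-base words, 8.01% also lie in the antisense gene 1700034H15Rik.

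Slc30a10, which exports manganese from hepatocytes to bile, was lower than every control mouse in 3 of the 4 AF1 peptide mice. Control mice had 789, 756, 971 and 814 normalized counts, and AF1 peptide mice had 517, 667, 632 and 921. The exception, AF1 peptide replicate 4, lay between the second highest and the highest control. With means of 832 ± 95.2 and 684 ± 170 (SD, n = 4 each), the log2 fold change was -0.31 (standard error 0.16, 95% interval -0.67 to 0.06, limma adjusted p = 0.763). It was -0.46 without AF1 peptide replicate 4, which passed the unadjusted threshold, and -0.18 without AF1 peptide replicate 1. Slc30a10 ran opposite to Mt1 among mice, with a Pearson correlation of -0.91 over the 8 mice and -0.85 without AF1 peptide replicate 1. With Mt2 the values were -0.80 and -0.61. The pair with Mt1 was the most negative of all pairs of the 8 genes, and these values only describe these libraries. Of the 50-base words of Slc30a10, 8.36% also lie in Gm2061 on the other strand.

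The importer Slc39a14, which takes up zinc, manganese and iron in hepatocytes and responds to interleukin 6, did not separate the groups. Control mice had 2652, 2762, 2752 and 3949 and AF1 peptide mice had 3850, 2612, 3473 and 2679. Control replicate 4 and AF1 peptide replicates 1 and 3 lay above all the other mice. The means of 3029 ± 616 and 3153 ± 607 (SD, n = 4 each) gave a log2 fold change of 0.06 (95% interval -0.31 to 0.43, limma adjusted p = 0.954), which was -0.03 at equal totals, -0.04 without AF1 peptide replicate 1 and 0.19 without control replicate 4.

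Slc39a8, an importer of manganese and zinc at the cell surface, was tight among control mice and scattered among AF1 peptide mice. Its normalized counts were 257, 262, 243 and 291 in control mice and 325, 177, 132 and 269 in AF1 peptide mice. AF1 peptide replicates 2 and 3 lay below all controls, replicate 1 above all controls and replicate 4 among them. The standard deviation was 7.7% of the mean in control and 38.7% in AF1 peptide mice. The means were 263 ± 20.3 and 226 ± 87.3 (SD, n = 4 each), with a log2 fold change of -0.30 (95% interval -0.85 to 0.24, limma adjusted p = 0.813). Without AF1 peptide replicate 1 it was -0.51 and passed the unadjusted threshold, and without AF1 peptide replicate 3 it was -0.08. Slc39a8 followed Slc30a1 among mice, with a Pearson correlation of 0.83 over the 8 mice and 0.88 without AF1 peptide replicate 1. This pair was picked from all pairs of the 8 genes, and the values only describe these libraries.

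Slc39a4, the zinc importer best known from the gut, was also expressed in these livers. It had 919, 1434, 1247 and 1187 normalized counts in control mice and 449, 1191, 948 and 1760 in AF1 peptide mice. The lowest and the highest values of all mice were both in the AF1 peptide group, in replicates 1 and 4. Means were 1197 ± 213 and 1087 ± 545 (SD, n = 4 each) and the log2 fold change was -0.28 (95% interval -1.03 to 0.47, limma adjusted p = 0.866). The sign changed without AF1 peptide replicate 1 (0.09), and the difference was -0.57 without AF1 peptide replicate 4 and -0.14 with edgeR and DESeq2. The 3 small intestine markers measured summed to 5665 to 7338 in control and 2530 to 5043 in AF1 peptide mice, without overlap. The lowest sum was in AF1 peptide replicate 1. At the unadjusted threshold 1 of these markers was lower, beside 3.03% of all tested genes. Nearly all of the small intestine sum was Fabp2, Vil1 and Lct were near 0 (Lct averaged 1.63), and their part in the Slc39a4 values was not tested.

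To compare levels between genes, normalized counts were divided by the length of each gene's merged exons (GENCODE M21). In control livers Mt1 and Mt2 stood at 13101 ± 4425 and 13049 ± 5451 counts per kilobase (SD, n = 4 each), and their ranges overlapped. Their merged exons were 1.25 and 0.588 kilobases long, and their control means before division were 16324 and 7673 normalized counts. The closeness of Mt1 and Mt2 per kilobase therefore rests on the lengths used. Slc39a4 followed with 385 ± 68.6 and Slc39a14 with 287 ± 58.4, again with overlapping ranges. Next came Slc30a10 at 143 ± 16.3, Slc30a1 at 68.6 ± 10.4, Slc39a8 at 34.4 ± 2.65 and Mtf1 at 27.4 ± 1.62 counts per kilobase, each below all control mice of the gene before it. In AF1 peptide livers the order of the means was the same, from 26089 ± 20368 for Mt1 and 19663 ± 8314 for Mt2 to 29.4 ± 11.4 for Slc39a8 and 28.5 ± 2.32 for Mtf1, and there the last pair overlapped. The lengths used could change this order. Per kilobase of the longest annotated transcript, Slc39a14 (592 ± 120) stood above Slc39a4 (435 ± 77.5) in control livers, and Slc39a8 (62.5 ± 4.82) came near Slc30a1 (68.6 ± 10.4).

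**Figure D3:**
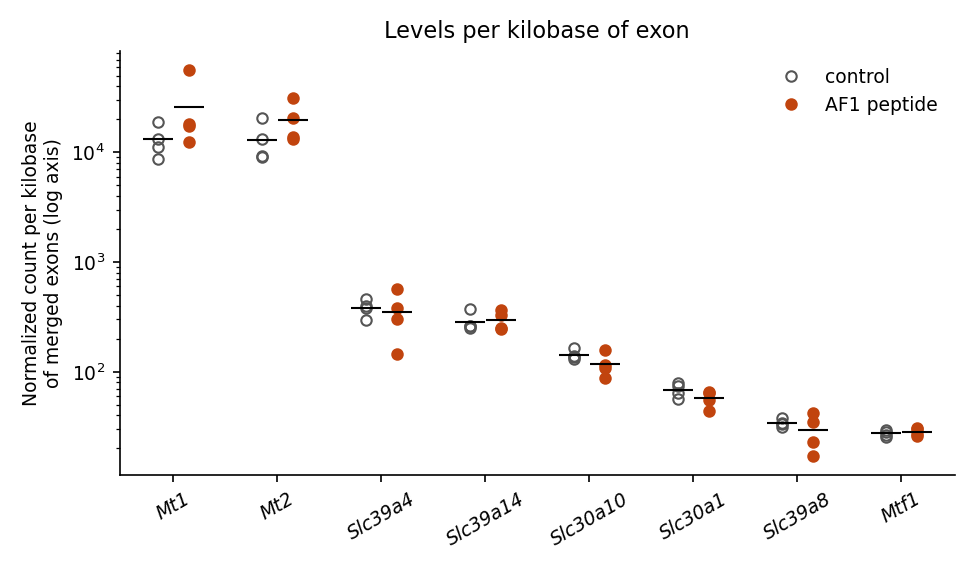
Normalized count per kilobase of merged exons (y axis, log scale) of the 8 genes, ordered by the control mean, in control mice (open) and AF1 peptide mice (filled), with group means as black bars. The control means of Mt1 and Mt2 are 13101 and 13049, whereas in control mice the transporters and Mtf1 lie between 25.7 and 462.

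The other genes of these families were measured for comparison. Of 21 further metallothionein, Slc30 and Slc39 genes listed, 15 were tested, and 1 was higher and 1 lower at an unadjusted p value under 0.05, beside 3.16% and 3.03% of all tested genes. Slc39a2, a ZIP family zinc importer, had 79.1, 56.1, 90.8 and 88.8 normalized counts in control and 122, 89.5, 108 and 109 in AF1 peptide mice. Its groups overlapped only through AF1 peptide replicate 2, and its log2 fold change was 0.46 (standard error 0.19, limma adjusted p = 0.763). Slc39a11, also a ZIP family gene, had 667, 810, 605 and 582 in control and 469, 533, 538 and 614 in AF1 peptide mice. AF1 peptide replicate 4 alone lay among the control mice, and the log2 fold change was -0.30 (standard error 0.13, limma adjusted p = 0.763). Leaving out 1 mouse at a time, Slc39a2 passed the unadjusted threshold only without control replicate 3, control replicate 4 or AF1 peptide replicate 2, and Slc39a11 only without control replicate 3, control replicate 4 or AF1 peptide replicate 4. Over all 8 fits with 1 mouse left out, the fold changes ranged from 0.31 to 0.54 for Slc39a2 and from -0.37 to -0.20 for Slc39a11. At equal totals Slc39a2 did not pass, and Slc39a11 did not pass in limma without the trend or with each gene's own variance. The other 13 tested genes had log2 fold changes from -0.44 to 0.12 and did not pass. The median over the 15 genes was -0.04, with 5 above and 10 below 0, where all tested genes had 7704 above and 8285 below. Slc30a2 and Slc30a8, which are known from pancreas, were at 3.67 to 8.86 and 0.824 to 10.1 normalized counts and were not tested.

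**Figure D4:**
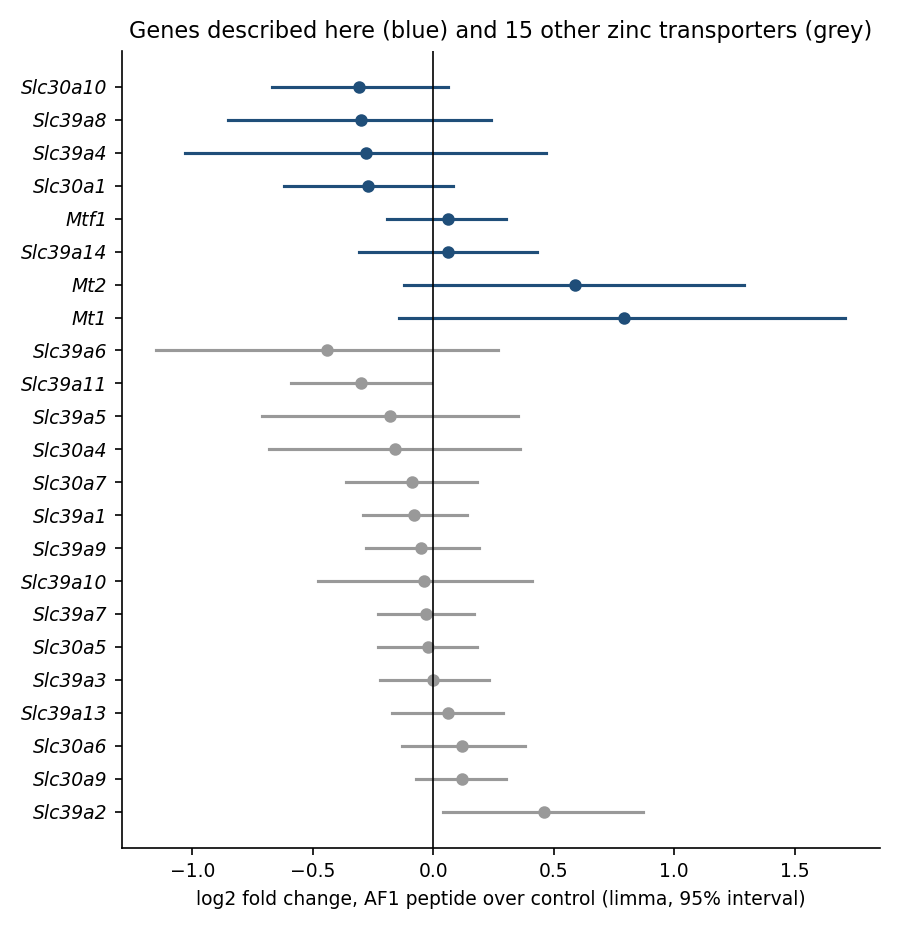
Log2 fold change of AF1 peptide over control (x axis, limma) with its 95% interval (lines) for the 8 genes described here (blue) and 15 other tested zinc transporter genes (grey). The intervals of all 8 blue genes include 0, and those of Slc39a2 (0.04 to 0.87) and Slc39a11 (-0.59 to -0.01) do not.

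Lists of genes with related roles were read in the same fit. Of 6 other genes bound or regulated by MTF1 (Gclc, Ndrg1, Csrp1, Selenoh, Selenow and Hamp), 0 passed the unadjusted threshold in limma, and at 3.16% higher and 3.03% lower over all tested genes a list of this length says little. Its median log2 fold change was 0.05. The smallest p value was that of Hamp, the gene of the iron hormone hepcidin, with 26874, 10170, 10922 and 21455 normalized counts in control and 58027, 30513, 24829 and 12814 in AF1 peptide mice. AF1 peptide replicate 1 was the highest mouse here too, and the groups overlapped. The log2 fold change of Hamp was 0.78 (standard error 0.45, limma adjusted p = 0.767), and 0.42 without AF1 peptide replicate 1. It passed the unadjusted threshold without control replicate 1 (1.04) and without AF1 peptide replicate 4 (1.15).

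Glucocorticoids induce metallothioneins, so 16 glucocorticoid-responsive genes were examined, of which 2 were higher and 0 lower at the unadjusted threshold, beside 3.16% and 3.03% of all tested genes. Their median log2 fold change was -0.02, with 8 above and 8 below 0. Of the 16 genes, 1 (Fkbp5) had groups that did not overlap, beside 3.9% of all tested genes. Fkbp5, which encodes a chaperone of the glucocorticoid receptor, had 594, 595, 657 and 701 normalized counts in control and 1136, 760, 758 and 771 in AF1 peptide mice. All AF1 peptide mice were above all control mice, and replicate 1 was far above the others. The log2 fold change was 0.41 (standard error 0.14, limma adjusted p = 0.763), and 0.26 without AF1 peptide replicate 1. At equal totals, the difference was 0.32 and no longer passed the unadjusted threshold. Zbtb16, a zinc finger transcription factor, had 155, 249, 78.9 and 147 in control and 426, 310, 203 and 265 in AF1 peptide mice. Only AF1 peptide replicate 3 lay below the highest control mouse. Its log2 fold change was 0.99 (standard error 0.32, limma adjusted p = 0.763), and 0.81 without AF1 peptide replicate 1.

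Of 22 interleukin 6 and acute phase genes, 0 passed the unadjusted threshold in limma, a share that 3.16% higher and 3.03% lower over all tested genes does not set apart. The median log2 fold change was 0.00. Steap4, a metalloreductase, had the smallest p value (log2 fold change -0.31, limma adjusted p = 0.789). Its counts of 418, 376 and 455 in AF1 peptide replicates 2 to 4 lay below all control mice (488 to 727), while replicate 1 had 753. Without that mouse its log2 fold change was -0.52, which passed the unadjusted threshold, and without AF1 peptide replicate 3 it was -0.19.

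Of 10 tested genes that handle or need manganese or zinc, 0 were higher and 2 lower at the unadjusted threshold, beside 3.16% and 3.03% of all tested genes. Of the 10 genes, 2 had groups that did not overlap, beside 3.9% of all tested genes, and these were the 2 that passed. Tmem165, a Golgi protein needed for manganese and calcium balance, had 173, 197, 192 and 167 normalized counts in control and 139, 141, 136 and 129 in AF1 peptide mice. Every AF1 peptide mouse was below every control mouse, and the spread within a group was small. The means were 182 ± 14.4 and 136 ± 5.35 (SD, n = 4 each), a log2 fold change of -0.42 (standard error 0.12, limma adjusted p = 0.763), which was -0.43 without AF1 peptide replicate 1. Pcx, the mitochondrial pyruvate carboxylase of gluconeogenesis, had 12289 to 14148 normalized counts in control and 10005 to 11722 in AF1 peptide mice. Its log2 fold change was -0.29 (standard error 0.11, limma adjusted p = 0.763), and -0.28 without AF1 peptide replicate 1. It did not pass without control replicate 2 or without AF1 peptide replicate 3, and its fold changes with 1 mouse left out ranged from -0.32 to -0.25. The list as a whole had a median of -0.15, with 1 gene above and 9 below 0. Over all tested genes, 7704 were above and 8285 below 0.

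**Figure D5:**
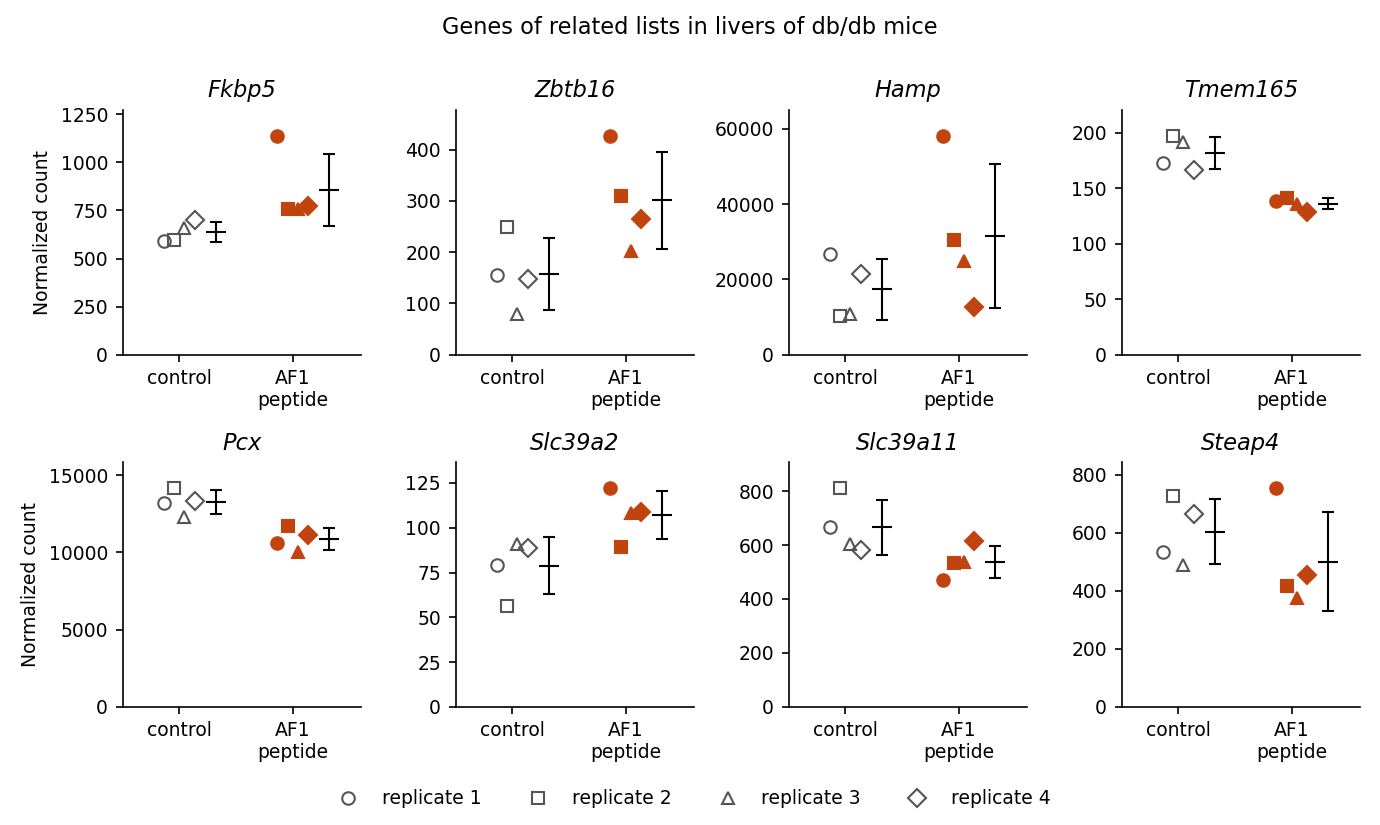
Normalized read count (y axis, linear, from 0) of 8 genes from the related lists in control mice (open) and AF1 peptide mice (filled), with the group mean and SD. Fkbp5, Tmem165 and Pcx, picked for passing the unadjusted threshold, have no overlap between the groups, beside 3.9% of all tested genes. AF1 peptide replicate 1 (circle) is the highest mouse for Fkbp5, Zbtb16, Hamp, Slc39a2 and Steap4.

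Among 12435 other genes whose normalized counts averaged at least 50, those most like the mean log2 value of Mt1 and Mt2 over the 8 mice were Ndrg3 (Pearson r = 0.979), Gm45978 (0.970), Nop9 (0.968), Fam204a (0.965) and Mkrn1 (0.961). Over the 7 mice without AF1 peptide replicate 1, the values were 0.973, 0.932, 0.918, 0.892 and 0.877. These genes were picked for the highest likeness among many, and the points share library depth and scaling. Ndrg3 had 271 to 331 normalized counts in control and 291 to 369 in AF1 peptide mice. Gm45978 had 93.9, 103, 74.6 and 74.5 in control and 159, 115, 109 and 94.6 in AF1 peptide mice, and AF1 peptide replicate 1 was again the highest mouse. Its log2 fold change of 0.45 (limma adjusted p = 0.763) passed the unadjusted threshold, and was 0.30 and did not pass without AF1 peptide replicate 1. With other mice left out it passed only without control replicate 2 or AF1 peptide replicate 4, and it did not pass at equal totals. The log2 fold changes of the other 4 genes were 0.06 to 0.15 and did not pass.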

How the data were processed

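Total liver RNA (TRIzol) of 4 control and 4 AF1 peptide mice went into a stranded mRNA kit. The submitters' notes name Trim Galore 0.6.7, HISAT2, SAMtools 1.17 and build mm39, and the study's methods name GenomicAlignments for counting. The deposited signal is a normalized read count, in which whole reads were scaled by a size factor for each mouse (100% of 172256 values came out whole within 0.01 reads). Annotation, use of strand and the normalization tool are not given in the sources used here. Groups and replicate numbers came from the sample titles.

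The log2(normalized count + 1) was fitted with limma 3.58.1 (R 4.3.3), with an intensity trend, over 15989 genes with a mean of at least 10. Fold changes are on this scale, which understates those of low genes. Standard errors and 95% intervals are limma's, and p values are two-sided and were adjusted by Benjamini-Hochberg over all tested genes. No more than the spread between mice is measured by them. edgeR 4.0.16 and DESeq2 1.42.0 used the recovered reads. The fits were tested on simulated data of these libraries. Depth ranged from 23031880 to 45117528 reads, and chi-square statistics of reads between replicates of a group showed no library deposited more than once within a group. Pairs of a control and an AF1 peptide library were not compared in this way.

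The 8 genes and the lists were chosen with earlier results of these data known. Named genes were the 8 genes, those of each list with an unadjusted p value under 0.05 or else the smallest p value, and the 5 most like Mt1 and Mt2. Alternatives were pseudocounts of 0.5 and 5, 2 other filters, TMM and equal-total scaling, other variances, the replicate number as a block, other tools, and each mouse left out. A second gene length, and the ratio of Mt1 to Mt2 with each mouse left out, were added after seeing the data.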

Additional observations from a re-analysis of the deposited data

Results flagged for a closer look

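In each group of 4 mice, the gap of the highest or lowest mouse to the nearest other was divided by the range of the group, for the 21 named genes and the ratio of Mt1 to Mt2. The quotient was above Dixon's 95% critical value for 4 samples in 3 of 44 groups. The nominal rate is about 1 in 20 (2.2 groups). Many of these genes were picked from these same data and are related, so that rate need not hold here. Mt1 was apart in AF1 peptide replicate 1, with 70276 normalized counts against 15468 to 22588 in the other AF1 peptide mice (0.870). Fkbp5 was apart in the same mouse, with 1136 against 758 to 771 (0.964). Slc39a14 was apart in control replicate 4, with 3949 against 2652 to 2762 in the other control mice (0.915).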

How the results depend on the processing

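At an unadjusted p value under 0.05, the count of the 8 genes was 0 as reported. It was 1 at equal totals (Slc30a10), 1 with edgeR (Mt1), and 0 to 2 with 1 mouse left out in turn, and the cause was not tested. Over all tested genes the count was 990 as reported, and 542 to 1603 with 1 mouse left out, the lowest without control replicate 2 and the highest without AF1 peptide replicate 1. With the replicate number as a block, 2 of the 8 genes (Mt1 and Mt2) and 1244 of all genes passed. The labels do not say that a number pairs mice, same-numbered mice had correlations of -0.064 to 0.235 in their deviations from the group means, and 4 of 8 mice correlated best with their own number. The block ended the call of Slc39a11 and no other call among the 21 named genes.

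Of 152 alternative values of the 8 genes, 140 kept their direction and their side of the threshold, 8 passed the threshold and 4 changed direction. These were Mtf1 (-0.03) and Slc39a14 (-0.03) at equal totals, and, without AF1 peptide replicate 1, Slc39a14 (-0.04) and Slc39a4 (0.09). With each mouse left out in turn, Slc39a14 ranged from -0.04 to 0.19 and Slc39a4 from -0.57 to 0.09. Mkrn1 also changed direction at equal totals (-0.03), a setting under which the median over the whole table was -0.0987 in place of -0.0083. The lowest read count of the 8 genes was 97 (Slc39a8). With 4 mice per group, the widest 95% interval among the 8 was -0.14 to 1.71 (Mt1).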
